A study of Mus musculus with 32 samples.

Results

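The response of unfractionated (total) RNA to TGFβ was examined in NMuMG cells, an untransformed epithelial line from the normal mouse mammary gland, across every gene of the array. The 4 arrays were chosen by their labels alone, as total RNA of the parental line, and are 4 of the 32 arrays of the study. Of these, 2 hold RNA of cells given TGFβ2 at 5 ng/ml for 24 h and 2 hold RNA of untreated control cells. Both groups are labelled wild type and were grown in the same medium, with serum, insulin and antibiotics. The line most often set beside them here is E1KD, an NMuMG derivative in which the RNA-binding protein hnRNP E1 is knocked down, and the study describes E1KD cells as mesenchymal in form without TGFβ. Its total RNA was measured with TGFβ on 2 arrays and without TGFβ on 2 arrays, in the same medium. The arrays of a group are labelled biological replicates, with no word on whether separate dishes were treated, and a p-value here reflects no more than the spread between these samples, which may be technical.

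TGFβ binds a pair of serine/threonine kinase receptors, which phosphorylate Smad2 and Smad3. These enter the nucleus with Smad4 and act on genes together with other DNA-binding factors, and the receptors also signal through MAP kinases and PI3 kinase. In mammary epithelial cells TGFβ halts growth and can drive an epithelial to mesenchymal transition (EMT), in which cells lose tight junctions and cell polarity and gain stress fibres, fibronectin matrix and motility.

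All values are levels on the log2 scale, as the authors deposited them, and a difference of 1 is a factor of 2. Among 12600 genes, each given by its probe set of highest mean, a gene was called higher or lower at an adjusted p under 0.05 by limma. The median of all values on all arrays was 5.52, and signals under it lie near the low end of the scale. The 2 arrays of a group were close to each other, with r of 0.9972 between the TGFβ arrays and 0.9973 between the control arrays across probe sets. Each probe set's spread was estimated over 24 arrays that include sucrose gradient fractions, whose replicates differed by an SD of up to 0.484, against 0.167 for the TGFβ pair and 0.165 for the control pair of total RNA. Of 16 luminal epithelial markers on the array 10 lay above 5.52 in both groups and the others lay below it, and Krt8, a keratin of simple epithelia, was at 14.34 and 14.34 with TGFβ, against 14.21 and 14.20 without. None of the 12 fibroblast markers lay above 5.52 in either group, with highest means of 5.50 with TGFβ and 5.31 without. Of leukocyte markers 4 of 11 lay above it with TGFβ and 3 without, and no leukocyte, endothelial or adipocyte marker was called. Pcbp1, which encodes hnRNP E1, was at 13.14 and 13.14 with TGFβ and at 13.08 and 13.12 without, while E1KD cells had 9.55 and 9.33 with TGFβ and 10.79 and 10.86 without.

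TGFβ moved a small share of the transcriptome, in both directions, and by modest amounts. Of the 12600 genes, 436 were higher (3.46%) and 372 were lower (2.95%), together 808 (6.41%). Counts of list members called by the same fit, given further on, are to be read beside these shares. By probe set 764 were higher and 618 were lower, 5.43% of the 25432 tested. The median increase called was 0.75 and the median decrease -0.77, and the median of all genes was 0.005. In such bulk RNA a change in every cell and a change in the number of cells that express a gene cannot be told apart. Only 121 of the genes that were higher and 118 of those that were lower moved by at least 1, and 15 and 16 moved by at least 2. The balance of directions depended on the scaling. With arrays centred on Actb and Gapdh 579 genes were higher and 265 lower. This centring used the mean of 8 probe sets, and 1 of them, for Actb, differed by -0.57. It was at 11.09 and 10.40 with TGFβ and at 11.50 and 11.14 without. The other Actb probe sets were slightly higher with TGFβ and the Gapdh probe sets slightly lower. Decreases outnumbered increases under quantile normalization (486 higher and 533 lower) and under median centring (435 and 463). The number depended on the arrays that set the spread, and the 8 total RNA arrays of both lines fitted alone called 2374 genes, 1381 higher and 993 lower, among which were 807 of the 808. Leaving out any 1 of the 4 arrays lowered the number to between 407 and 431 genes, and no call rested on overlapping arrays in the full set.

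**Figure D1:**
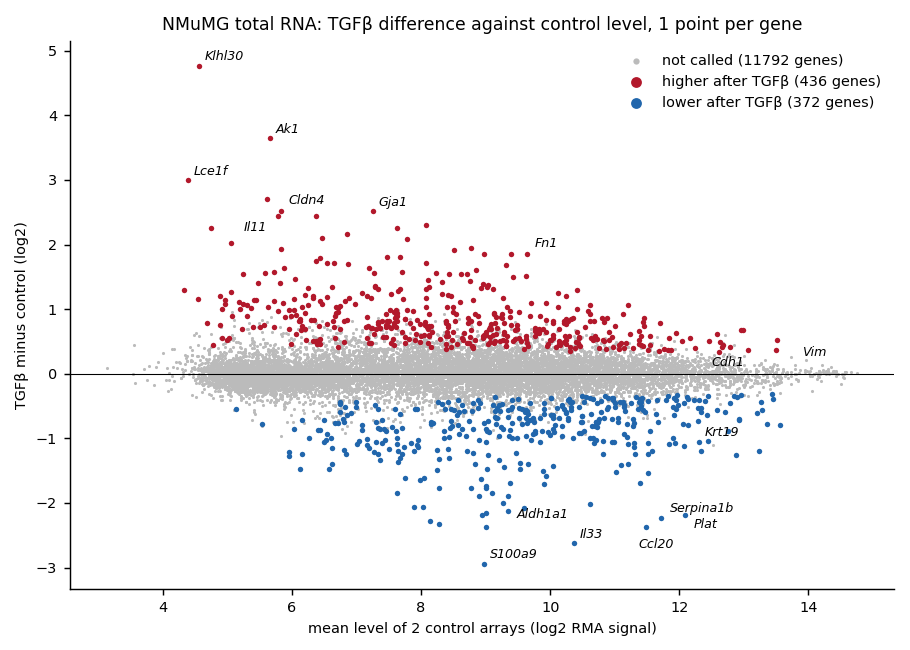
Difference between TGFβ-treated and control NMuMG total RNA (log2, vertical axis) against the mean level of the 2 control arrays (log2 signal, horizontal axis), 1 point per gene. The 436 genes called higher are red, the 372 called lower are blue, and the largest increases, Klhl30, Ak1 and Lce1f, start at control levels near 5, while decreases such as Plat, Ccl20 and Serpina1b start above 11.

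The largest increase was in Klhl30, a little studied gene of the kelch-like family, many of whose members are adaptors of cullin-3 ubiquitin ligases. Klhl30 was at 9.29 and 9.38 with TGFβ and at 4.71 and 4.42 without, a difference of 4.77 (SE 0.24). The control values lie at the low end of the scale, where signals are close to background, so no fold is given. One other kelch-like gene of the 23 measured was called, Klhl26, which rose by 0.48.

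Ak1, the adenylate kinase that balances ATP, ADP and AMP in muscle and other tissues, followed with 9.30 and 9.32 after TGFβ, against 5.70 and 5.62 in control cells. It rose by 3.65 (SE 0.11), 12.6-fold, with the smallest adjusted p of all named genes (8.43e-12). Lce1f, a late cornified envelope gene of skin, was at 7.41 and 7.39 with TGFβ and at 4.47 and 4.32 without, a difference of 3.0. It too was near the low end of the scale in control cells, as were Ackr3 and Aldh1l1, and 31 of the 436 genes called higher had a control mean below 5.52.

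Proteases and an inhibitor made up 4 of the 20 largest increases, a grouping made after their values were seen. Ctsw, a cysteine protease known from cytotoxic lymphocytes, was at 8.30 and 8.35 with TGFβ and at 5.87 and 5.38 without, a difference of 2.70. Ctse, an intracellular aspartic protease, rose by 2.26, but its second probe set differed by 0.18 and was not called. Ctla2a, which encodes an inhibitor of cathepsin-type cysteine proteases, rose by 2.44, and its probes may also detect its near-identical neighbour Ctla2b. The secreted serine protease Prss23 was at 10.05 and 9.69 with TGFβ and at 7.70 and 7.86 without, a difference of 2.09.

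Membrane and junction proteins formed another part of the 20. Gja1 encodes connexin 43, the gap junction channel of many mesenchymal and myoepithelial cells. It was at 9.75 and 9.80 with TGFβ and at 7.24 and 7.26 without, a difference of 2.52 or 5.76-fold, and all 5 of its probe sets were called, with differences of 0.99 to 2.69. Cldn4 encodes claudin 4, a tight junction protein of epithelia, and it rose although EMT is known for the loss of such proteins. It was at 8.35 and 8.36 with TGFβ and at 5.76 and 5.90 without, a difference of 2.52 (SE 0.26, adjusted p = 1.16e-05). Ncam1, the neural cell adhesion molecule and a known mesenchymal marker, was at 10.44 and 10.40 with TGFβ and at 8.37 and 8.65 without, and 3 of its 5 probe sets were called. Mst1r, the receptor tyrosine kinase of macrophage-stimulating protein, rose by 1.93, and Ackr3, an atypical receptor of the chemokine CXCL12, rose by 2.25.

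Secreted signals and matrix completed the group. Il11, a cytokine of the IL-6 family and a known TGFβ target, was at 8.15 and 8.28 with TGFβ and at 5.78 and 5.77 without, a difference of 2.44 or 5.43-fold. Pdgfa, a chain of platelet-derived growth factor that acts on mesenchymal cells, was at 11.24 and 11.25 with TGFβ and at 9.37 and 9.41 without, a difference of 1.85. The matrix glycoprotein Fbln2 was at 10.64 and 10.79 with TGFβ, against 8.69 and 8.87. In each of these genes both TGFβ arrays lay well above both control arrays. They were chosen for large increases with arrays that do not overlap, so this separation is no separate evidence. The others were Mab21l4 (2.31), a gene of little known function, Ankrd44 (2.17), a regulatory subunit of protein phosphatase 6, Spsb1 (2.10), a SOCS box adaptor of ubiquitin ligases with called increases in 2 of 3 probe sets, Aldh1l1 (2.02), an enzyme of folate metabolism, and Lmcd1 (1.85), a LIM domain protein of muscle.

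**Figure D2:**
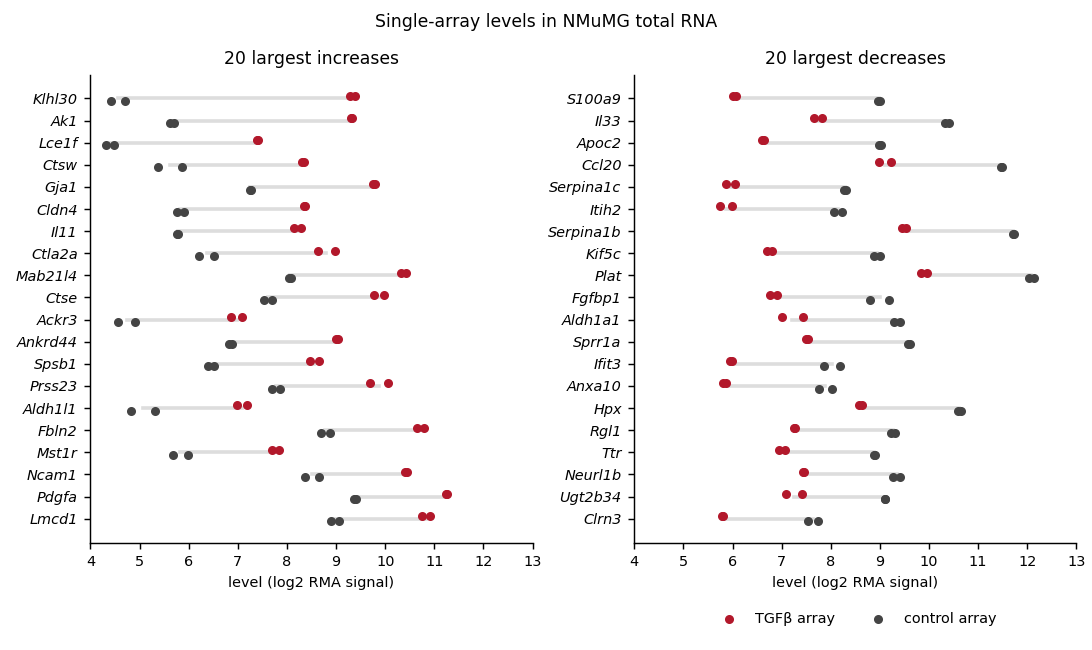
Levels (log2 signal, horizontal axis) of the 20 genes of largest increase (left) and the 20 of largest decrease (right) in each of the 2 TGFβ arrays (red) and 2 control arrays (grey) of NMuMG total RNA, with a bar between the group means. The 2 arrays of a group nearly coincide and the groups do not overlap in any of the 40 genes, a separation that the choice of these genes required.

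The largest decreases were in alarmins, chemokines and proteins that liver secretes into plasma. S100a9, a subunit of calprotectin, which neutrophils and inflamed epithelia release, was at 6.07 and 6.0 with TGFβ and at 9.0 and 8.96 without, and fell by 2.94 (SE 0.18) or 7.7-fold. Its partner S100a8 was at 11.17 and 11.11 with TGFβ and at 12.34 and 12.34 without, a difference of -1.20. In the polysomal gradient fraction S100a8 rose instead, by 2.82. Il33, an alarmin stored in epithelial nuclei, was at 7.83 and 7.65 with TGFβ and at 10.33 and 10.40 without, and fell by 2.62 (SE 0.22, adjusted p = 1.43e-06). Ccl20, the chemokine that draws CCR6-bearing lymphocytes and dendritic cells to epithelia, was at 8.99 and 9.23 with TGFβ and at 11.49 and 11.47 without, a difference of -2.37.

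Plasma-type proteins made up 6 of the 20 decreases, a grouping made after their values were seen and not tested. Serpina1b, of the α1-antitrypsin cluster, was at 9.44 and 9.54 with TGFβ and at 11.71 and 11.72 without, a difference of -2.23. Serpina1c fell by 2.33, though these paralogs are so similar that their probe sets may share transcripts. Apoc2, the activator of lipoprotein lipase, was at 6.65 and 6.61 with TGFβ and at 9.03 and 8.98 without. The haem scavenger Hpx was at 8.57 and 8.63 with TGFβ, against 10.59 and 10.65, the thyroxine carrier Ttr fell by 1.89 (-3.25 to -1.89 among its 4 probe sets), and the hyaluronan-binding Itih2 fell by 2.28. Rbp4, the plasma carrier of retinol, was at 12.01 and 12.06 with TGFβ and at 13.26 and 13.20 without, a difference of -1.20 with an SE of 0.09. Foxa2, a forkhead factor that acts on many of these genes in liver, was at 9.86 and 9.99 with TGFβ and at 10.93 and 11.05 without. Hnf4a, a nuclear receptor of liver and gut looked up after the other values were seen, was at 9.75 and 9.90 with TGFβ and at 10.65 and 10.63 without, a difference of -0.81 (adjusted p = 6.01e-04). The 4 probe sets of Hnf4a differed by -0.81 to -0.20, and 2 of them were called. Whether Foxa2 or Hnf4a bears on the other decreases was not tested.

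Further decreases came from proteolysis, growth factor handling and epithelial differentiation. Plat, tissue plasminogen activator, was at 9.84 and 9.95 with TGFβ and at 12.03 and 12.13 without, a difference of -2.19 or 4.55-fold. Fgfbp1, which releases fibroblast growth factors from matrix, was at 6.91 and 6.77 with TGFβ and at 8.80 and 9.19 without. Aldh1a1, a retinaldehyde dehydrogenase used as a marker of mammary progenitor cells, was at 7.0 and 7.44 with TGFβ and at 9.28 and 9.41 without. Every one of these TGFβ arrays lay more than 1 below the control arrays. The genes were chosen for large decreases with arrays that do not overlap, so this gap is no separate evidence. Sprr1a, a crosslinked precursor of the cornified envelope, was at 7.50 and 7.53 with TGFβ and at 9.58 and 9.62 without, so that Lce1f and Sprr1a, both of the cornified envelope, moved in opposite directions. The others were the neuronal kinesin heavy chain Kif5c (-2.19), the interferon-induced Ifit3 (-2.06), the annexin Anxa10 (-2.06), the Ral exchange factor Rgl1 (-2.0), the ubiquitin ligase Neurl1b of Notch ligands (-1.89), the glucuronosyltransferase Ugt2b34 (-1.85) and the clarin Clrn3 (-1.84).

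Promoter windows of 300 bases, 250 before and 50 after the start site as RefSeq gives it on GRCm38.p6, were searched on both strands for 3 short motifs. The first window listed was taken for each of the 10177 genes that had one. The AP-1 motif TGANTCA, bound by Fos and Jun proteins, stood in the windows of 24 of 342 genes called higher (7.02%) and 36 of 300 called lower (12%), and in 523 of all genes (5.14%). Among genes that moved by at least 1 it stood in 12 of 95 that were higher (12.6%) and 12 of 98 that were lower (12.2%). The E-box CAGGTG, bound by Snail and Zeb factors, stood in 18.1% of the windows of genes called higher and 21.7% of those called lower, against 18.2% of all. The hypoxia response motif TACGTG stood in 1.46% and 4.67%, against 3.4% of all. Among genes that moved by at least 1 the E-box stood in 12.6% of the higher and 24.5% of the lower. The hypoxia response motif stood in 0% and 4.08% of these. These shares are descriptions with no test, and a match is not a bound site. The AP-1 matches of 5 genes are shown because they carry the motif on the windows of genes that moved both ways, with the motif in capitals, each written 5′ to 3′ on the gene's own strand. Cldn4 (minus strand) has it at chr5:134947159-134947183 and chr5:134947077-134947101, 240 and 158 bases before the start, Gja1 (plus strand) at chr10:56377272-56377296, 19 bases before it, and Ctla2a (minus strand) at chr13:60936739-60936763, 129 bases before it. Of the genes that were lower, Sprr1a (minus strand) has it at chr3:92486012-92486036 and chr3:92485982-92486006, 146 and 116 bases before the start, and Mmp13 (plus strand), a collagenase, at chr9:7272470-7272494, 35 bases before it.
Cldn4, first match: ctaggctggTGACTCAgtgtctgtg
Cldn4, second match: actggcgggTGACTCAggggcccag
Gja1: ccttccagtTGAGTCAgtggcttga
Ctla2a: cttgctgtaTGACTCAgcctgttcc
Sprr1a, first match: aactaaagcTGAGTCAgagggtgaa
Sprr1a, second match: ggaggagggTGAGTCAtaggtgact
Mmp13: ccaaagtggTGACTCAtcactatca

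Of 24 measured genes known as TGFβ targets, 12 were higher and 2 lower, with a median of 0.36. Beside Il11, Fn1 was at 11.49 and 11.49 with TGFβ and at 9.61 and 9.67 without, a difference of 1.85, and fibronectin is both a Smad target and a mesenchymal matrix protein. Itgb6, a subunit of the αvβ6 integrin that activates latent TGFβ, was at 8.57 and 8.56 with TGFβ and at 7.06 and 6.68 without. Thbs1, another activator of latent TGFβ, rose by 1.68. The 2 decreases, Id2 and Id3, are inhibitors of differentiation that lower the DNA binding of other helix-loop-helix factors, and Id2 was at 9.89 and 9.71 with TGFβ and at 11.14 and 11.25 without.

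Among ligands, receptors and Smads of the TGFβ superfamily 7 of 37 were higher and 2 lower. The Smad corepressors Ski (0.88) and Skil (0.87) and the BMP receptor subunits Acvr1 (0.86) and Bmpr2 (0.81) rose, while the ligand Bmp4 was at 7.11 and 7.17 with TGFβ and at 8.45 and 8.43 without. The receptor Tgfbr1 differed by 0.48 (adjusted p = 0.0711), Tgfbr2 by -0.07 and Smad3 by 0.09, none of them called.

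Of 11 EMT transcription factors measured 1 was called higher and none lower by the 24-array fit, beside 3.46% and 2.95% of all genes. The 8-array fit called 4 of the 11 higher, and 1381 of all 12600 genes. Centring on Actb and Gapdh gave 3 higher, beside 579 of all genes. Array weights gave 5 higher and 1 lower, beside 1762 and 1426 of all genes. By the 24-array fit only Zeb1 was called, at 9.58 and 9.53 with TGFβ and at 8.93 and 9.01 without, and its second probe set differed by -0.04. Zeb2 was at 8.82 and 8.54 with TGFβ and at 7.98 and 7.67 without, a difference of 0.85 that missed the threshold (adjusted p = 0.0621), and 2 of its other probe sets were called. Snai2 differed by 0.36 (adjusted p = 0.396, or 0.01 by limma on the 8 total RNA arrays), and Snai1, at 5.35 and 5.24 with TGFβ and 4.87 and 5.03 without, lay at the low end of the scale.

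Cdh1, encoding E-cadherin, was at 12.53 and 12.39 with TGFβ and at 12.43 and 12.40 without. Cdh2, encoding N-cadherin, was at 11.64 and 11.56 with TGFβ and at 11.48 and 11.47 without, a difference of 0.12 (adjusted p = 0.954). The tight junction genes Tjp1 (0.13) and Ocln (-0.08) and the intermediate filament gene Vim, at 13.92 and 13.94 with TGFβ and 13.77 and 13.81 without, were not called either. Of 10 mesenchymal markers, 4 were higher, Ncam1, Fn1, Acta2 (0.56) and Sparc (0.39, 1 of 3 probe sets), and S100a4 was lower (-0.71). Among all genes 3.46% were higher and 2.95% lower. Acta2 lay at the low end of the scale, at 5.56 and 5.41 with TGFβ and 4.98 and 4.86 without. Under quantile normalization, median centring or an intensity trend 3 of the 10 were higher.

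Of 12 epithelial regulators 4 were lower and 1 was higher, with a median of -0.03 and 6 members on each side of 0. The forkhead factor Foxa1, needed for luminal differentiation, was at 6.39 and 6.54 with TGFβ and at 7.66 and 7.64 without. Klf5 (-0.88), Cdx2 (-0.87) and Tfap2a (-0.83) also fell, and Klf4 rose by 0.59. The splicing regulator Esrp2 differed by -0.17 and was not called.

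Junction genes were called in both directions, as were all genes (3.46% higher and 2.95% lower). Of 20 desmosome and adherens junction genes the plaque proteins Pkp2 (0.85) and Jup (0.74) were higher and Ppl was lower (-1.03). Of 20 tight junction and polarity genes Cldn4 and F11r (0.37) were higher and Llgl2 (-0.55) and Lsr (-0.39) were lower, and the other probe set of F11r differed by -0.23. Under centring on Actb and Gapdh that list had 2 higher and none lower. Krt19, a luminal keratin, was at 11.20 and 11.32 with TGFβ and at 12.24 and 12.38 without, and the simple epithelial keratin Krt23 fell by 1.48 to the low end of the scale. Of 16 milk and luminal secretory genes, the mucin Muc1 (-1.07), the lipopolysaccharide co-receptor Cd14 (-1.04) and the casein Csn3 (-0.80) were lower and the lipid droplet protein Plin2 (0.67) and clusterin, Clu (0.53), were higher.

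Matrix and adhesion genes were mostly higher among those called. Of 28 matrix glycoprotein and matrix modification genes 7 were higher and 1 lower, with Ltbp1, which tethers latent TGFβ to the matrix, at 10.35 and 10.34 with TGFβ and at 8.95 and 8.96 without. Of 25 collagen and basement membrane genes 5 were higher and 2 lower, with the epidermal laminin chain Lamb3 (1.10) and the anchoring fibril collagen Col7a1 (0.85) up and the laminin chains Lamc1 (-0.73) and Lama5 (-0.66) down. Of 33 integrin and focal adhesion genes 6 were higher, among them Tns1 (1.08) and Lims2 (0.79), and the collagen receptor subunit Itga1 was lower (-1.36). All 4 of the collagen chains called, of 21 measured, were higher.

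Of 29 secreted and membrane proteases and inhibitors 6 were higher and 5 lower, or 6 and 2 under centring on Actb and Gapdh. Mmp13 was at 10.11 and 9.86 with TGFβ and at 11.55 and 11.48 without, a difference of -1.53, while Prss22 rose by 1.01. Of 30 contractile and muscle-type genes 7 were higher and 3 lower, among them the sarcomeric genes Acta1, at 6.53 and 6.83 with TGFβ and 5.75 and 5.52 without, and Tnnt2 (0.97). Mylk, the kinase of myosin light chain, was lower (-1.63). Among 29 myosins 4 were higher and none lower, led by Myo7a at 10.33 and 10.51 with TGFβ and 9.11 and 9.10 without.

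**Figure D3:**
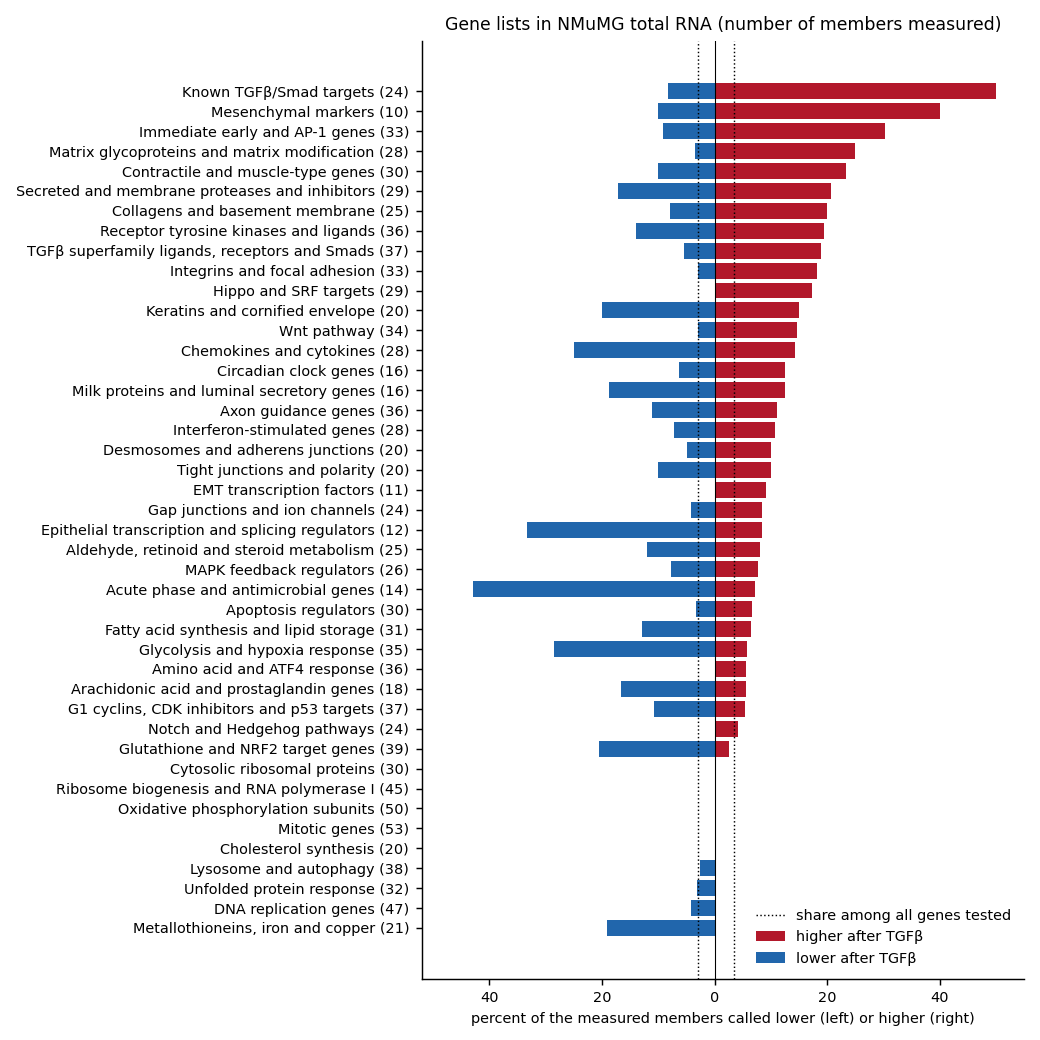
Percent of the measured members of each gene list shown that were called higher (red, right) or lower (blue, left) after TGFβ in NMuMG total RNA, with the number measured in parentheses. Dotted lines mark the shares among all genes, 3.46% higher and 2.95% lower, and the lists reach from 12 of 24 higher for known TGFβ targets to 6 of 14 lower for acute phase genes and to no call in mitotic, ribosomal protein and oxidative phosphorylation genes.

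Receptors and ligands of other pathways were called in both directions, beside 3.46% higher and 2.95% lower among all genes. Of 34 Wnt pathway genes 5 were higher and 1 lower. The Wnt5a receptor Ror1 was at 8.04 and 8.20 with TGFβ and at 6.26 and 6.47 without, the receptor Fzd2 was at 8.16 and 8.36 with TGFβ and at 6.41 and 6.67 without, and the ligand Wnt9a was at 6.72 and 6.87 with TGFβ and at 5.30 and 5.20 without. Fzd1 rose by 1.14, and Fzd5 fell by 0.54. The control values of Wnt9a and Fzd1 lay below 5.52, near the low end of the scale. Of 36 receptor tyrosine kinases and ligands 7 were higher and 5 lower, and Pdgfb rose with Pdgfa, at 11.03 and 11.26 with TGFβ and 9.52 and 9.74 without. Of 36 axon guidance genes 4 were higher and 4 lower, with the semaphorins Sema3c (-1.41) and Sema3e (-1.38) lower and the netrin Ntn4 (1.31) and the Slit receptor Robo1 (1.12) higher.

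Immediate early and AP-1 genes had 10 of 33 higher and 3 lower, with a median of 0.14. Jun was at 8.64 and 8.88 with TGFβ and at 7.38 and 7.67 without, and the stress-induced Gadd45g (1.22), Gadd45a (1.07) and Gadd45b (1.04) rose. Egr1 was at 6.40 and 6.27 with TGFβ and at 7.96 and 8.01 without, a difference of -1.65, and the AP-1 subunit Fosl1 fell by 1.00. The ERK phosphatase Dusp6, which is itself induced by ERK signalling, was at 10.94 and 10.95 with TGFβ and at 12.07 and 12.07 without. Of 29 Hippo and SRF targets 5 were higher and none was lower, led by the ecto-nucleotidase Nt5e, at 9.96 and 10.03 with TGFβ and 8.43 and 8.45 without (2 of 3 probe sets), Nuak2 (0.97) and Ccn2 (0.68). Among 30 apoptosis genes the BH3-only protein Bmf was at 10.16 and 10.18 with TGFβ and at 8.57 and 8.67 without, Bok rose by 0.53 and the anti-apoptotic Bcl2l1 fell by 0.70.

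Acute phase and antimicrobial genes were called lower at a share of 6 in 14, with 1 higher and a median of -0.29. Beside S100a9, S100a8 and Itih2 these were the siderophore-binding Lcn2, at 4.83 and 4.65 with TGFβ and 6.11 and 5.78 without, ceruloplasmin, Cp (-0.81), and complement factor B, Cfb (-0.74), and the lipopolysaccharide-binding Lbp rose by 0.51. Of 28 chemokines and cytokines 7 were lower and 4 higher. The neutrophil chemokine Cxcl5 was at 10.18 and 10.15 with TGFβ and at 11.23 and 11.38 without, and Cxcl1 was at 10.23 and 10.24 with TGFβ and at 11.40 and 11.21 without. Higher among the cytokines were 3 of the IL-6 family, Il11, Lif (0.83) and Clcf1 (0.71), and the chemokine Ccl7 (0.78), the last at the low end of the scale, with 5.40 and 5.53 against 4.69 and 4.69. Of the S100 family 4 of 11 were lower and none higher (median -0.28), and of 19 tetraspanins 4 were lower and none higher, although under centring on Actb and Gapdh the tetraspanins had 2 lower and 1 higher.

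Metabolic genes were mostly lower among those called. Of 39 glutathione and NRF2 target genes 8 were lower and 1 higher, with a median of -0.10, while 8 were lower and 2 higher with a median of -0.02 under centring on Actb and Gapdh, and 12 were lower under quantile normalization. Gclc, the catalytic subunit of the enzyme that limits glutathione synthesis, was at 10.31 and 10.44 with TGFβ and at 11.64 and 11.50 without, a difference of -1.20. The transferases Gsta2 (-1.77), Gsta3 (-1.49) and Gsta4 (-1.07), of a family whose close copies the probes may not separate, and the cytochrome Cyp2s1 (-1.47) fell as well, while Nfe2l2, encoding NRF2, differed by -0.18 and was not called. The enzyme Gpx1, which reduces peroxides with glutathione, rose by 0.40.

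Glycolysis and hypoxia response genes had 10 of 35 lower and 2 higher, with a median of -0.27. The oxygen-sensing prolyl hydroxylase Egln3 was at 8.20 and 8.21 with TGFβ and at 9.95 and 9.88 without, a difference of -1.71. Aldoc (-0.88) and Bnip3 (-0.75) fell, while the glycolytic regulator Pfkfb3 rose by 1.05. Named beyond the 4 largest after their values were seen, the glycolytic enzymes Aldoa, Ldha, Pkm and Tpi1 also fell. Ldha was at 12.88 and 12.81 with TGFβ and at 13.28 and 13.27 without, and Pkm was at 11.67 and 11.80 with TGFβ and at 12.29 and 12.37 without. Hif1a differed by 0.09 and was not called. Gapdh, another glycolytic gene, was at 13.82 and 13.78 with TGFβ and at 13.95 and 13.99 without on its control probe set, and centring arrays on Actb and Gapdh left 8 of the 35 genes lower and 2 higher, with a median of -0.18.

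Metal and retinoid genes followed. The metallothioneins Mt2, at 11.86 and 11.88 with TGFβ and 12.73 and 12.78 without, and Mt1, at 12.55 and 12.58 with TGFβ and 13.34 and 13.36 without, were among 4 of 21 metal-handling genes that were lower, with none higher. The median of that list was -0.06, or 0.02 under centring on Actb and Gapdh. Of 25 aldehyde, retinoid and steroid genes Aldh1a1, Rbp4 and the retinal reductase Rdh11 (-1.23) were lower and Aldh1l1 and Hsd3b7 (0.64) were higher. Of 206 solute carriers 10 were lower and 6 higher, beside shares of 2.95% lower and 3.46% higher among all genes. The counts turned to 6 lower and 8 higher under centring on Actb and Gapdh. The folate transporter Slc46a1 was at 7.50 and 7.54 with TGFβ and at 5.85 and 5.91 without.

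Cell cycle and stress response genes held few calls in NMuMG cells and many in E1KD cells. Of 53 mitotic genes none was called by limma with 24 arrays, 1 was lower at an unadjusted p under 0.05, and 5 were lower by the 8-array fit, with a median of -0.02. Mki67 was at 10.73 and 10.71 with TGFβ and at 10.78 and 10.78 without. In E1KD cells, where 11.7% of all genes were higher after TGFβ and 11.4% lower, 49 of the 53 were higher and none lower, with a median of 1.46. The test of the difference between lines, which called 6.83% of all genes more positive and 6.33% more negative in NMuMG cells, called 45 of the 53 more negative.

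DNA replication genes had a lower median in NMuMG cells, -0.22, with 43 of 47 below 0, and 2 of them, the thymidine kinase Tk1 (-0.89) and the methylation maintenance factor Uhrf1 (-0.60), were called. The 8-array fit called 16 lower and none higher, beside 993 lower and 1381 higher of all 12600 genes. In E1KD cells 25 were higher and 2 lower, with a median of 0.49. Of 37 genes of G1 cyclins, CDK inhibitors and p53 targets, the inhibitor Cdkn2a (0.74) was among 2 that were higher, and E2f8 (-0.85), Cdk6 (-0.69) and Ccnd2 (-0.55) were among 4 that were lower. The inhibitor Cdkn2b, a known TGFβ target named after its value was seen, was the other increase (0.38). Myc (-0.06) and Ccnd1 (-0.11) were not called.

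The unfolded protein response and amino acid response lists were the reverse of the cycle lists. Of 32 unfolded protein response genes only Ero1b was called in NMuMG cells (-0.55; 2 higher and 1 lower under centring on Actb and Gapdh), against 26 lower and none higher in E1KD cells, with medians of 0.07 in NMuMG cells and -1.27 in E1KD cells. Of 36 amino acid and ATF4 response genes Ddit4 (0.74) and Nupr1 (0.44) were higher in NMuMG cells, against 3 higher and 22 lower in E1KD cells. The test between lines called 24 of the 32 and 20 of the 36 more positive in NMuMG cells and none more negative.

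Housekeeping lists held no call in NMuMG cells by the 24-array fit. They were 50 oxidative phosphorylation genes (2 lower at an unadjusted p under 0.05, 1 lower by the 8-array fit), 45 of ribosome biogenesis (5 lower and 6 lower), 30 ribosomal proteins (1 lower and 1 lower) and 20 of cholesterol synthesis (1 higher and 3 lower by both measures). With array weights, which called 3188 genes in all, 13 of the 45 ribosome biogenesis genes, 8 of the 50 oxidative phosphorylation genes and 2 of the 30 ribosomal proteins were lower, the cholesterol list had 5 lower and 1 higher, and the mitotic list had 8 lower and 1 higher. Quantile normalization, median centring and centring on Actb and Gapdh gave at most 1 call in each direction per list.

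**Figure D4:**
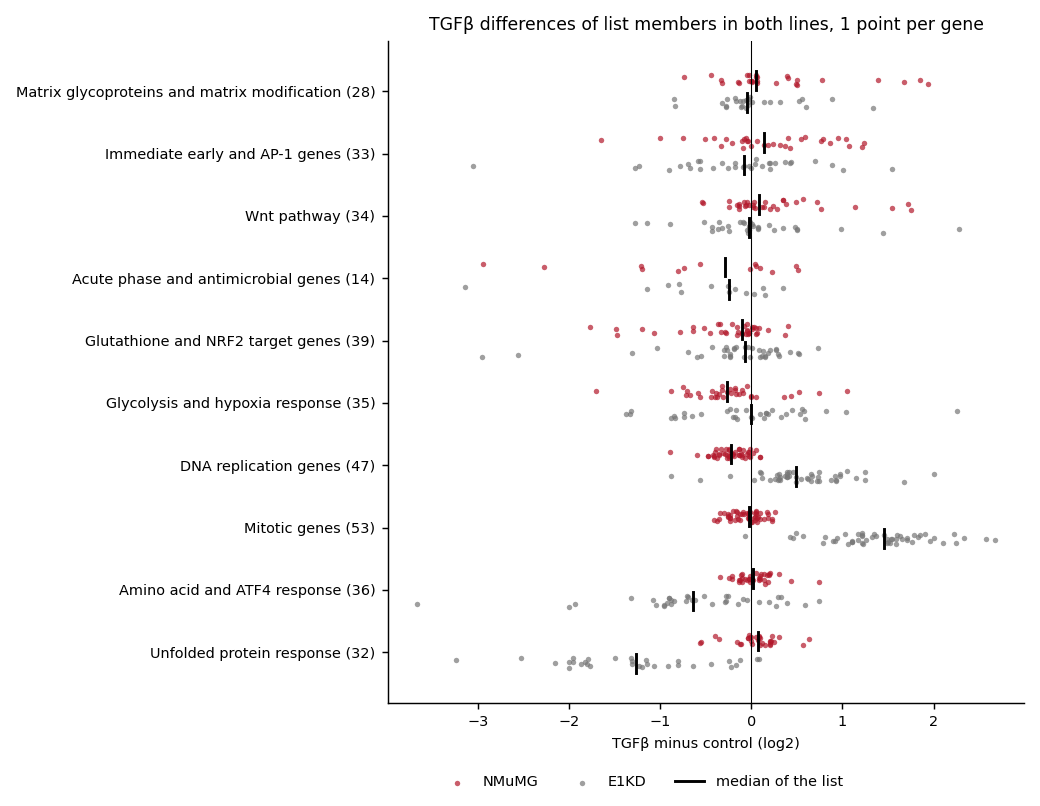
TGFβ minus control difference (log2, horizontal axis) of each measured member of 10 gene lists in NMuMG (red, upper row of each pair) and E1KD (grey, lower row) total RNA, 1 point per gene, with the list median as a black bar. NMuMG medians lie between -0.29 and 0.14, while the E1KD medians reach 1.46 for mitotic genes and -1.27 for the unfolded protein response.

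Part of the NMuMG response was also called in E1KD cells, whose 4 total RNA arrays are separate from those of NMuMG. Of all genes 11.7% were higher and 11.4% lower in E1KD cells, and 3.46% were higher and 2.95% lower in NMuMG cells. Across all genes the differences of the 2 lines had a Pearson r of 0.151. Of the 436 genes higher in NMuMG cells 175 (40.1%) were higher and 57 (13.1%) lower in E1KD cells, which are 11.9% of the genes higher and 3.96% of the genes lower there. Of the 372 lower in NMuMG cells 110 (29.6%) were lower and 63 (16.9%) higher in E1KD cells, or 7.63% of the genes lower and 4.27% of the genes higher there. Their median differences in E1KD cells were 0.25 and -0.08, against -0.03 for all genes. Mab21l4 moved alike in both, with 2.31 in NMuMG and 2.33 in E1KD cells, and the difference between lines was -0.02 (SE 0.20). Ackr3 moved by 2.25 in NMuMG and 2.08 in E1KD cells, with a difference of 0.16 (SE 0.38), and Ltbp1 by 1.39 and 1.34.

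The test of the difference between lines called 1658 genes, 861 more positive and 797 more negative in NMuMG cells, and 1036 to 1090 without any 1 of the 8 arrays. Klhl30 had the largest positive difference. Its E1KD levels were 8.59 and 8.57 with TGFβ and 9.70 and 9.85 without, so that untreated E1KD cells already lay at the level of treated NMuMG cells and TGFβ lowered it, and the lines differed by 5.96 (SE 0.34, adjusted p = 1.33e-08). Ak1, Fbln2, Ncam1 and Ctla2a were also high in untreated E1KD cells. Fbln2 was at 12.35 and 12.31 with TGFβ and 12.38 and 12.36 without there, and Ncam1 at 11.47 and 11.44 with TGFβ and 11.34 and 11.24 without. Cldn4 differed, at 5.71 and 5.70 with TGFβ and 6.33 and 6.60 without in E1KD cells, low in all 4 arrays.

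The other large positive differences between lines belong to genes that moved little in NMuMG cells and fell in E1KD cells. Prdx4, a peroxiredoxin of the endoplasmic reticulum, was at 11.03 and 11.01 with TGFβ and 11.10 and 11.06 without in NMuMG cells, against 4.02 and 4.15 with and 8.48 and 8.53 without in E1KD cells. Ddit3, which encodes the stress factor CHOP, was at 12.76 and 12.75 with TGFβ and 12.77 and 12.79 without in NMuMG cells, and it fell by 3.67 in E1KD cells. The stress factor Atf3 rose in NMuMG cells, to 11.02 and 11.02 with TGFβ against 10.22 and 10.28 without, and fell by 3.06 in E1KD cells. Krt7 (difference between lines of 3.54), Mamdc2 (4.08) and Car6 (3.99) also fell in E1KD cells and were not called in NMuMG cells.

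The large negative differences were mostly of genes that fell in NMuMG cells and rose in E1KD cells. They include Sprr1a (-2.08 in NMuMG and 2.33 in E1KD cells), Id2 (-1.40 and 2.64), Plat (-2.19 and 1.59), Cxcl5 (-1.14 and 2.50), Egr1 (-1.65 and 1.54) and Aldh1a1 (-2.12 and 1.02), called in each line. The exceptions were AF067061 and Tcstv1, which rose in E1KD cells (3.41 and 3.12) and differed by -0.29 and -0.33 in NMuMG cells, not called. By level Plat reached a like point in both lines after TGFβ, with 9.84 and 9.95 in NMuMG and 9.88 and 9.94 in E1KD cells, while the untreated lines stood at 12.03 and 12.13 in NMuMG and 8.30 and 8.34 in E1KD cells.

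**Figure D5:**
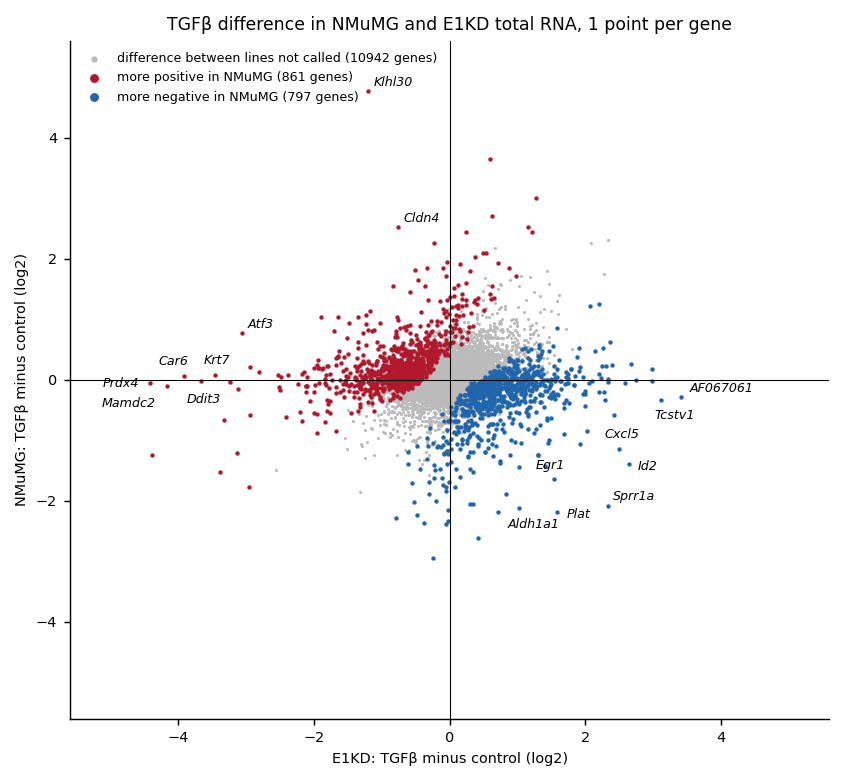
TGFβ minus control difference in NMuMG total RNA (log2, vertical axis) against that in E1KD total RNA (log2, horizontal axis), 1 point per gene. The 861 genes called more positive in NMuMG are red and the 797 called more negative are blue, with Klhl30 and Cldn4 above the horizontal axis, Sprr1a, Plat and Id2 below it, and Prdx4 and Ddit3 beside it.

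The polysomal pool of NMuMG cells, hybridized on other arrays of the same treatment, held most of the increases and most of the decreases. In that pool 20.4% of all genes were higher after TGFβ and 13.3% lower. Of the 436 genes higher in total RNA 316 (72.5%) were higher in it and 10 (2.29%) lower, with a median of 0.73, and of the 372 lower 196 (52.7%) were lower and 27 (7.26%) higher, with a median of -0.46, against 0.02 for all genes. The shared increases are 12.3% of the pool's increases and the shared decreases 11.7% of its decreases. In the monosomal pool the median difference was -0.29 for the 436 genes higher in total RNA and -0.49 for the 372 lower. The shares and median of all genes are not given for that pool, so these medians cannot be judged. Its 2 TGFβ arrays also differed most among the pairs of the fit, with an SD of 0.484. A pool can also move with translation, which was not separated here.

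Of the 20 largest increases 18 were higher in the polysomal pool as well. Klhl30 rose there by 4.07, Ak1 by 2.63 and Pdgfa by 2.51. The exceptions were Gja1, with -0.41 (adjusted p = 0.196) in the pool against 2.52 in total RNA, and Ackr3, with 0.11 against 2.25. Both fell in the monosomal pool (-4.83 for Gja1 and -3.02 for Ackr3), whose 2 TGFβ arrays were the least alike. Neither pool showed the rise of total RNA. Of the 20 largest decreases 15 were lower in the pool and none higher. S100a9 was among the other 5, with 0.17 (adjusted p = 0.5) in the pool, against -2.94 in total RNA, as were Apoc2 (-0.39), Rgl1 (-0.34), Kif5c (-0.29) and Clrn3 (-0.65). Its partner S100a8 is not among the 20. S100a8 rose by 2.82 in the polysomal pool and by 0.83 in the monosomal pool, against -1.20 in total RNA.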

How the data were processed

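RNA was hybridized to Affymetrix mouse genome arrays, 1 array per sample. The authors normalized the arrays with RMA in Affymetrix Expression Console, and the deposited values are log2 signals. They also obtained MAS5 detection calls, which were not used here, and the table names no annotation version. Of 45101 probe sets the 64 control probe sets were left out, and those above 5.52, the overall median, on 8 or more of the 32 arrays were kept. This left 25432, of which 22090 carry 1 gene symbol, 621 several and 2721 none in the platform annotation.

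Samples were grouped by their labels. Limma 3.58.1 under R 4.3.3 (lmFit and eBayes, 2-sided) was used in 1 fit of the 24 arrays of total RNA and gradient fractions with 12 residual degrees of freedom and no replicate block. The 8 immunoprecipitation arrays entered only the filter and 1 alternative. Benjamini-Hochberg adjustment ran over all probe sets kept, with a threshold of 0.05. The difference between lines was tested as an interaction. A gene stands by its probe set of highest mean over the 24 arrays. A fold is 2 to the power of a difference. The procedure was tested on simulated data. Tables were made with Python 3.11.15, pandas 2.3.3 and numpy 2.4.6.

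Named are the 20 largest increases and decreases with arrays that do not overlap, up to 4 members of largest change per list, the 8 largest differences between lines in each direction, the genes of highest level that moved by at least 1, and markers. Others are said to have been chosen after their values were seen. The lists and members were chosen with earlier results of these data known, and gene lists are described by counts and medians with no test. 1 gene list is not reported here. Alternatives were other sets of arrays in the fit, filters, scalings, array weights, an intensity trend, the replicate block and leaving out each array. The number of arrays, 2 per group, limits the precision.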

Additional observations from a re-analysis of the deposited data

Results flagged for a closer look

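The response of NMuMG cells differed from that of E1KD cells, as tested by the interaction in limma, for 2910 probe sets. The genes below are the 8 largest such differences in each direction (log2, NMuMG response minus E1KD response), all past the threshold under each alternative that gave a value. The differences were 5.96 for Klhl30, 4.36 for Prdx4, 4.08 for Mamdc2, 3.99 for Car6, 3.83 for Atf3, 3.65 for Ddit3, 3.54 for Krt7 and 3.29 for Cldn4. In the other direction they were -4.41 for Sprr1a, -4.04 for Id2, -3.77 for Plat, -3.71 for AF067061, -3.63 for Cxcl5, -3.46 for Tcstv1, -3.19 for Egr1 and -3.15 for Aldh1a1. Tcstv1 and Mamdc2 lay below 5.52 in all NMuMG arrays.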

How the results depend on the processing

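The number of calls depended above all on the arrays that set the spread. Against 1382 probe sets and 808 genes called for TGFβ in NMuMG cells, the 8 total RNA arrays alone gave 4403 and 2374, the 4 arrays compared gave 3931 and 2036, all 32 arrays gave 634 and 370, and array weights gave 5876 and 3188. Leaving out 1 of the 8 total RNA arrays gave 662 to 1238 probe sets and 407 to 722 genes. The fewest genes were left without an NMuMG array, with 431 and 409 without TGFβ replicate 1 and 2 and 407 and 413 without control replicate 1 and 2, where the lone array is assumed to vary like the other groups. Centring on Actb and Gapdh, which moved the median of all probe sets by 0.09, gave 1030 higher and 440 lower (70.1% higher, against 55.3%). Of the 8 probe sets averaged for that centring, 1 Actb probe set differed by -0.57, far more than the others. For the difference between lines, against 2910 probe sets and 1658 genes, the 8 arrays gave 7340 and 3949, array weights gave 8080 and 4358, and leaving out 1 array gave 1779 to 1894 and 1036 to 1090. The 4 arrays compared can give no such difference.

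The labels number the replicates, but the deviations of equally numbered total RNA arrays correlated between -0.035 and 0.290, so the numbers were not taken as pairs. With the replicate number as a block 1429 probe sets and 829 genes were called for TGFβ, and 3001 and 1702 for the difference between lines. Other filters, an intensity trend, quantile normalization and median centring kept each count within 1.5 times the main count. Of 760 checks of the 40 genes of largest change 753 kept direction and side of the threshold. The other 7, Spsb1, Lmcd1, Serpina1b, Sprr1a, Ifit3, Anxa10 and Ugt2b34, missed it with all 32 arrays in the fit (adjusted p of 0.0509 to 0.119), and none reversed.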

Other observations

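In 4 other lists of NMuMG total RNA some genes were higher and others lower, beside 3.46% higher and 2.95% lower among all genes. Of 28 interferon-stimulated genes the antiviral Ifit2 (-1.34) fell with Ifit3, while the RNA sensor Ifih1 (0.99), the transcription factor Irf1 (0.79) and the peptide loading protein Tapbp (0.55) rose. Of 31 fatty acid and lipid storage genes 4 were lower, among them the elongase Elovl6 (-0.90), and 2 were higher. Of 16 clock genes Bhlhe40 (0.80) and Nfil3 (0.58) were higher and the nuclear receptor Rora was lower (-0.89). Rora had 8 probe sets with differences of -0.89 to 0.14, of which 2 were called lower. Of 24 gap junction and ion channel genes the chloride channel Ano1 was at 11.38 and 11.46 with TGFβ and at 10.44 and 10.40 without, and the potassium channel Kcnk5 fell by 1.08.

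Trim71, an RNA-binding ubiquitin ligase of early development, was at 6.37 and 6.45 with TGFβ and at 8.05 and 8.02 without, a difference of -1.62. Of 32 forkhead factors Foxj1 (1.10) and Foxf2 (0.82) were among 3 that were higher, and 2 were lower, Foxa1 (-1.19) and Foxa2 (-1.06). Of 266 zinc finger proteins named Zfp 4 were higher and 1 lower, beside 3.46% and 2.95% of all genes. By the fit of the 8 total RNA arrays 44 were higher and 10 lower. That fit called 1381 of all 12600 genes higher and 993 lower. Of 36 proteasome subunits 31 lay above 0, with a median of 0.12, and only Psmd8 was called (0.37).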
